A study of Sus scrofa with 6 samples.

Results

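The immediate-early response genes are 10 genes, FOS, FOSB, JUN, JUNB, EGR1, EGR3, ATF3, IER2, MYC and NR4A1, described here in the longissimus dorsi (LD), a long back muscle. They were found by gene name in the deposited transcript table, which gave 8 of the 10, and the remaining 2, JUN and IER2, stood there under their Ensembl IDs only and were found through a table of IDs and symbols. The 10 genes have 38 transcripts in the table, and they are 10 of 12782 genes with a symbol that reached a mean of 0.1 FPKM over the pigs, a fragment density scaled to transcript length and library size. The muscle was taken at the thoracolumbar junction of 6 castrated male Laiwu pigs, a Chinese breed known for fat within its muscle. No treatment or age is given in the labels. The pigs had been slaughtered by a standard procedure, and the muscle for RNA was frozen in liquid nitrogen. The time from slaughter to freezing is not stated, and the part of handling, slaughter and this delay in the levels was not tested. The S-H group held 3 pigs with an extremely high intramuscular fat (IMF) content (LW63, LW70 and LW119), and the S-L group held 3 pigs with an extremely low IMF content (LW82, LW88 and LW90). There was 1 library per pig, made after removal of ribosomal RNA, and the pigs were picked from the ends of the IMF range of a larger set of pigs, so they are not random samples of the breed.

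Immediate-early genes are transcribed within minutes of a stimulus, because the factors that switch them on are already in the cell and only need to be phosphorylated. FOS, FOSB, JUN, JUNB and ATF3 encode basic leucine zipper proteins that pair with each other to form the AP-1 family of transcription factors. EGR1 and EGR3 are zinc finger factors, NR4A1 is an orphan nuclear receptor, IER2 is a small nuclear protein, and MYC is a regulator of cell growth. In skeletal muscle several of these genes are known to respond to contraction, stretch and injury, and their messages are short-lived.

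The skeletal muscle fibre markers ACTA1, CKM, MYH7 and TNNT3 summed to between 5593 and 9137 FPKM per pig, and none of these 4 was listed at 0 in all pigs, while MYH1, MYH2 and MB were not analysed here. No batch is given in the labels, and FPKM gives no counts, so the depth of each value is unknown. Over all tested genes the median log2 fold change of S-H over S-L was 0.21, and it was 0.0050 after division by median-ratio size factors, so a difference of about this size is shared by genes in general. The 6 adipocyte markers summed to between 474 and 1233 FPKM in S-H and between 291 and 363 FPKM in S-L, and 5 of the 6 passed the test below as higher in S-H. In whole tissue, fewer cells of a type and less RNA per cell cannot be told apart.

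JUN, FOS and JUNB were far above the rest of the 10 genes. Mean expression over the 6 pigs was 145 FPKM for JUN, 96.8 FPKM for FOS and 91.6 FPKM for JUNB, each above at least 96.9% of the tested genes. EGR1 (23.3 FPKM), ATF3 (19.1 FPKM) and NR4A1 (16.8 FPKM) formed a middle level. FOSB (5.24 FPKM), MYC (3.73 FPKM) and IER2 (2.59 FPKM) were lower, and EGR3 was the lowest at 0.682 FPKM. The order within these levels was not fixed, since FOS was above JUNB in 4 of 6 pigs and EGR1 above ATF3 in 3 of 6. JUNB was above EGR1, NR4A1 above FOSB, and IER2 above EGR3 in all 6 pigs.

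**Figure D1:**
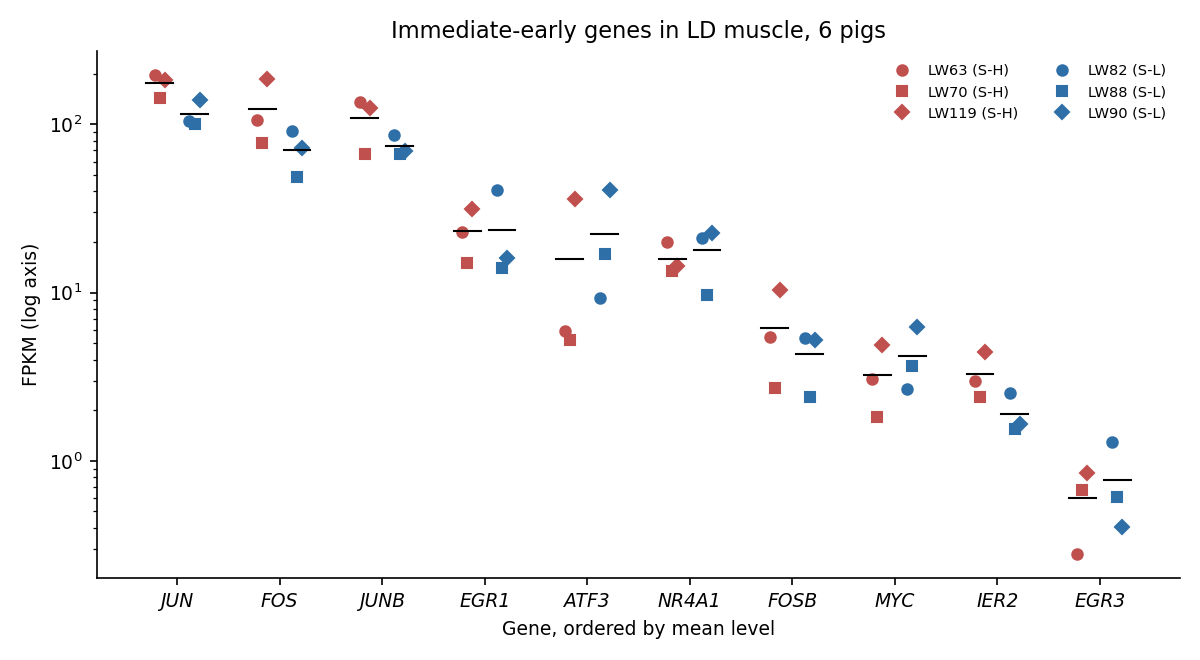
Expression of the 10 immediate-early genes in each pig, in FPKM on a log axis, with S-H pigs in red, S-L pigs in blue and a short black line at each group mean (3 pigs per group). On this scale JUN is the only gene in which the 3 S-H pigs (143 to 197 FPKM) lie above the 3 S-L pigs (101 to 139 FPKM), which did not hold after size factors.

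No immediate-early gene passed the thresholds of the group comparison, a limma p below 0.01 before adjustment and a log2 fold change of 1 or more in either direction, which 1.27% of all tested genes passed. A limma p below 0.05 was reached by 2 of the 10 genes, JUN and IER2, and by 7.85% of all tested genes. Neither gene reached it after size factors or quantile normalization. After Benjamini-Hochberg adjustment in limma 0 tested genes stayed below 0.05, while 1003 had a p below 0.05 before adjustment. Of the 10 genes 6 had a higher mean log2 level in S-H, beside 73.1% of all tested genes, and their median log2 fold change was 0.24 beside 0.21 for all tested genes.

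JUN (ENSSSCG00000031912, chromosome 6, 153685682 to 153687656 of Sscrofa11.1) encodes the Jun subunit with which Fos proteins pair. Its level was 197 FPKM in LW63, 143 FPKM in LW70 and 184 FPKM in LW119, against 105 FPKM in LW82, 101 FPKM in LW88 and 139 FPKM in LW90. The 3 S-H pigs all lay above the 3 S-L pigs, although LW70 exceeded LW90 by little. On this scale JUN was the 1 gene of the 10 without overlap, beside 14.6% of all tested genes. These were made up of 12.8% higher and 1.78% lower in S-H. S-H averaged 175 ± 28.1 FPKM and S-L 115 ± 21.2 FPKM (SD, n = 3 pigs each). The log2 fold change was 0.61 (SE 0.25, 95% interval 0.05 to 1.17, limma adjusted p = 0.629 and raw p of 0.0365). By exact permutation (two-sided) p was 0.10, the lowest value that 3 pigs against 3 can give. Its direction held under every alternative tried, with a log2 fold change of 0.39 after size factors (limma raw p of 0.197). The separation did not hold after size factors, where LW90 (172) was above LW70 (149) and LW119 (161), nor after quantile normalization, and the exact permutation p was 0.30 in both. It did hold with TPM over genes with a symbol and with the values as deposited (exact permutation p = 0.10 in each). The adipocyte markers also separated the groups, and their part in the JUN difference was not tested.

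JUNB (ENSSSCG00000013735, chromosome 2, 66214594 to 66215637) encodes a Jun protein that often restrains the activity of JUN. It had 135 FPKM in LW63, 66.9 FPKM in LW70 and 124 FPKM in LW119, and 86.7, 66.9 and 69.3 FPKM in LW82, LW88 and LW90. LW63 and LW119 were above all S-L pigs, while LW70 was level with the lowest of them. S-H and S-L differed by a log2 fold change of 0.50 (SE 0.30, limma adjusted p = 0.675 and raw p of 0.136). Without LW70 it was 0.81 (limma raw p of 0.0109) and without LW63 0.31. The ratio of JUNB to JUN within a library lay between 0.467 and 0.686 in S-H and between 0.497 and 0.826 in S-L (two-sided exact permutation p = 0.70 on the log2 ratio, 1 of 6 ratios compared). The conversion of JUN from an inferred TPM scale enters this ratio. As deposited the ratio lay between 0.363 and 0.559 in S-H and between 0.396 and 0.700 in S-L.

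FOS (ENSSSCG00000002383, chromosome 7, 98449349 to 98455554) is the founding Fos subunit of AP-1. It stood at 106 FPKM in LW63, 77.3 FPKM in LW70 and 186 FPKM in LW119, against 91.1 FPKM in LW82, 48.5 FPKM in LW88 and 72.5 FPKM in LW90. LW119 had the highest and LW88 the lowest level, and the other 4 pigs lay between them with the groups mixed. S-H averaged 123 ± 56.2 FPKM and S-L 70.7 ± 21.3 FPKM (SD, n = 3 pigs each), with a log2 fold change of 0.75 (SE 0.36, 95% interval -0.07 to 1.56, limma adjusted p = 0.632 and raw p of 0.0680). Without LW119 this log2 fold change was 0.40. Transcript FOS-201 carried between 94.1% and 98.3% of the FOS level in each pig, and 2 of the 4 FOS transcripts were listed at 0 in all pigs.

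FOSB (ENSSSCG00000031616, chromosome 6, 51837719 to 51844531) encodes a Fos protein that is known to build up with repeated stimulation in its truncated form. Its level was 5.46 FPKM in LW63, 2.70 FPKM in LW70 and 10.3 FPKM in LW119, and 5.37 FPKM in LW82, 2.38 FPKM in LW88 and 5.21 FPKM in LW90. As for FOS, LW119 was highest and LW88 lowest. Its log2 fold change came to 0.39 (SE 0.49, limma adjusted p = 0.828 and raw p of 0.442), and it was -0.076 without LW119. Within a library the ratio of FOSB to FOS lay between 0.0350 and 0.0719, and the ranges of the groups overlapped. The FOSB signal was split among transcripts, with FOSB-204 at 57.5% of the gene in LW119, 69.6% in LW90 and listed at 0 in LW88, where FOSB-203 held 58.2%.

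LW119, the pig with the highest FOS and FOSB, was also apart in the neutrophil markers that could be analysed. The neutrophil markers S100A8 and S100A12 summed to 22.2 FPKM in LW119 and to between 0.546 and 3.86 FPKM in the other 5 pigs. S100A9 and CXCR2, also on this marker list, were not analysed here because no symbol matched. The macrophage and fibroblast marker sums were also highest in LW119, at 66.2 and 630 FPKM, but LW63 was close at 58.3 and 608 FPKM. The adipocyte marker sum of LW119 was the lowest of S-H, at 474 FPKM. The part of these cells in the FOS and FOSB levels was not tested.

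ATF3 (ENSSSCG00000015595, chromosome 9, 130770428 to 130787462), a stress-induced factor of the ATF family that can repress transcription, varied most among the 10 genes. It reached 40.8 FPKM in LW90 and 36.2 FPKM in LW119, 17.0 FPKM in LW88 and 9.31 FPKM in LW82, and it was at 5.93 FPKM in LW63 and 5.26 FPKM in LW70. LW63 and LW70 were below every S-L pig, while LW119 was above LW82 and LW88. Between the groups the log2 fold change was -0.83 (SE 0.74, 95% interval -2.49 to 0.83, limma adjusted p = 0.752 and raw p of 0.290). Without LW119 it was -1.72 and passed the thresholds (limma raw p of 0.00876), the only call of an immediate-early gene in any setting tried. It was -1.33 without LW82, but -0.42 without LW63, -0.34 without LW70 and -0.27 without LW90. ATF3 also had the most transcripts, 14 of the 38, of which 10 were assembled from the reads by the authors. The Ensembl transcript ENSSSCT00000016988 of ATF3 ran from 0.768 FPKM in LW63 to 38.2 FPKM in LW90 and made up 12.9% of the gene in LW63 but 93.7% in LW90, and still more in LW88. In LW63 an assembled transcript, TCONS_00286059, held 77.2% of the ATF3 level. With the Ensembl transcripts alone the log2 fold change was -1.83 (limma raw p of 0.139).

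EGR1 (ENSSSCG00000014336, chromosome 2, 140441421 to 140445296), a zinc finger factor induced by growth factors and mechanical load, was 22.9 FPKM in LW63, 15.1 FPKM in LW70 and 31.3 FPKM in LW119. In the S-L pigs it was 40.6 FPKM in LW82, 14.0 FPKM in LW88 and 16.0 FPKM in LW90. The highest and the lowest pig were both S-L, and the group means of 23.1 and 23.5 FPKM lay within the spread. The log2 fold change of 0.08 (SE 0.42, limma adjusted p = 0.959 and raw p of 0.846) turned to -0.13 after size factors, -0.082 after quantile normalization and -0.041 with protein-coding genes scaled to the same total.

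EGR3 (ENSSSCG00000009630, chromosome 14, 6945936 to 6948684) is a relative of EGR1 that is known for its role in the muscle spindle, the stretch sensor of muscle. It was weakly expressed, at 0.280 FPKM in LW63, 0.674 FPKM in LW70 and 0.843 FPKM in LW119, and at 1.29 FPKM in LW82, 0.607 FPKM in LW88 and 0.404 FPKM in LW90. LW82 was highest for both EGR genes, while the lowest pig was LW88 for EGR1 and LW63 for EGR3. The log2 fold change was -0.28 (SE 0.48, limma adjusted p = 0.883 and raw p of 0.581).

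NR4A1 (ENSSSCG00000031321, chromosome 5, 17385390 to 17408514), a nuclear receptor linked to glucose and lipid handling in muscle, is listed as a pseudogene in the RefSeq gene table of the same assembly. Its level was 19.9, 13.4 and 14.3 FPKM in LW63, LW70 and LW119 and 21.2, 9.71 and 22.5 FPKM in LW82, LW88 and LW90. The S-L pigs held both ends of the range, and the S-H pigs lay inside it. S-H and S-L differed by a log2 fold change of -0.09 (SE 0.35, limma adjusted p = 0.945 and raw p of 0.794), which turned to 0.053 with TPM over genes with a symbol. An assembled lncRNA on the same strand, NR4A1-OT1, contributed between 6.31% and 12.8% of these sums.

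IER2 (ENSSSCG00000013753, chromosome 2, 65909646 to 65911423) was 2.97 FPKM in LW63, 2.41 FPKM in LW70 and 4.41 FPKM in LW119, against 2.51 FPKM in LW82, 1.56 FPKM in LW88 and 1.65 FPKM in LW90. On this scale the groups overlapped only because LW82 was slightly above LW70. Its log2 fold change came to 0.73 (SE 0.32, 95% interval 0.01 to 1.46, limma adjusted p = 0.631 and raw p of 0.0465). By exact permutation (two-sided) p was 0.20. The raw p of limma was 0.0796 after size factors and 0.0826 after quantile normalization. In both of these the S-H pigs lay above the S-L pigs, with LW70 only just above LW82 (exact permutation p = 0.10). The same held with TPM over genes with a symbol and with the values as deposited. Among these scalings the groups thus overlapped only in FPKM without further scaling. As deposited, IER2 was 3.10 in LW70 and 2.97 in LW82, with a log2 fold change of 0.87 (limma raw p of 0.0316).

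MYC (ENSSSCG00000005965, chromosome 4, 12455119 to 12461078) had 3.08 FPKM in LW63, 1.82 FPKM in LW70 and 4.85 FPKM in LW119, and 2.67 FPKM in LW82, 3.67 FPKM in LW88 and 6.26 FPKM in LW90. LW90 and LW119 were the highest and LW70 the lowest, which is the order of ATF3 at both ends. Between the groups the log2 fold change was -0.38 (SE 0.41, limma adjusted p = 0.802 and raw p of 0.386). It was -0.71 without LW119 and -0.65 without LW82, but -0.029 without LW70 and -0.052 without LW90. MYC-202 carried at least 94.8% of the gene in 5 pigs, but 58.1% in LW70, where MYC-203 made up 41.9%.

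**Figure D2:**
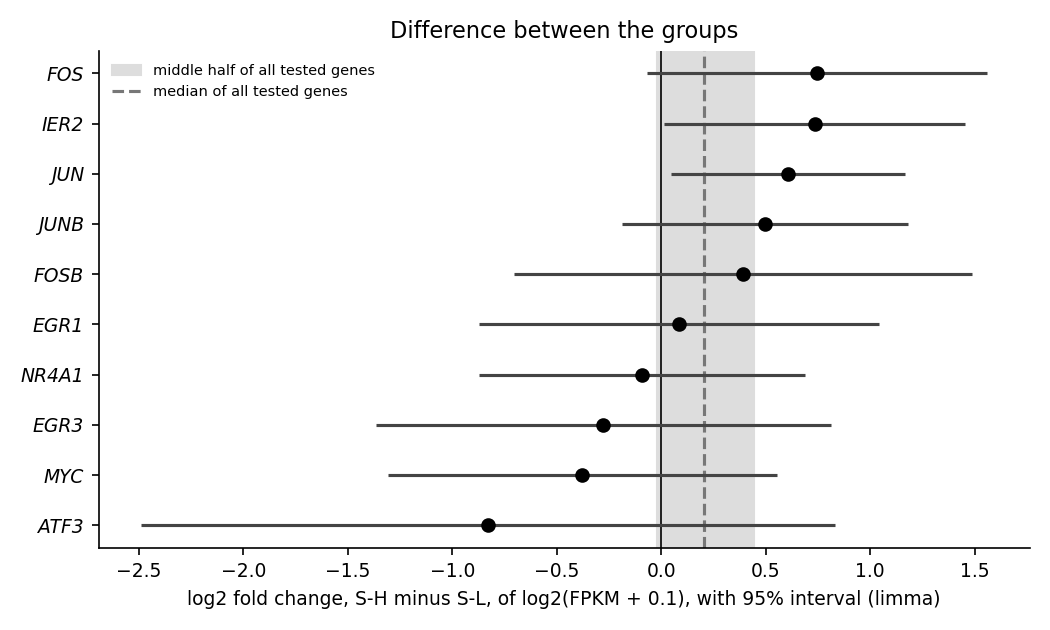
Log2 fold change of each immediate-early gene, S-H minus S-L on log2(FPKM + 0.1), with its 95% interval from limma (3 pigs per group). The dashed line is the median of all tested genes (0.21) and the grey band their middle 50%, and the intervals of JUN and IER2 alone lie above 0, while after size factors their raw p values were 0.197 and 0.0796.

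The spread between pigs of the same group was larger for these genes than for most genes. The SD within groups on the log2 scale was above the median of all tested genes (0.39) for 9 of the 10, with a median of 0.60. ATF3 (1.33) was above 98.5% of tested genes, FOSB (0.81) above 91.4%, EGR3 (0.72) above 87.8%, EGR1 (0.70) above 86.7% and MYC (0.65) above 83.7%. FOS (0.56) and NR4A1 (0.52) were above 75.9% and 72.4% of tested genes. JUNB (0.42) and IER2 (0.40) were close to the median, above 56.1% and 52.0%. In the 6 early-response lists described below, the median SD ran from 0.36 for the kinases and factors to 0.56 for the other AP-1 and Maf proteins. JUN was the exception at 0.25, above only 19.8% of tested genes. Its values within a group differed by at most 1.38-fold on this scale, while those of ATF3 differed by 6.89-fold in S-H. The narrow range of JUN depends on the scaling. It ran from 103 to 172 in S-L after size factors, and from 185 to 289 in S-H as deposited. With 3 pigs per group such an SD is itself imprecise.

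**Figure D3:**
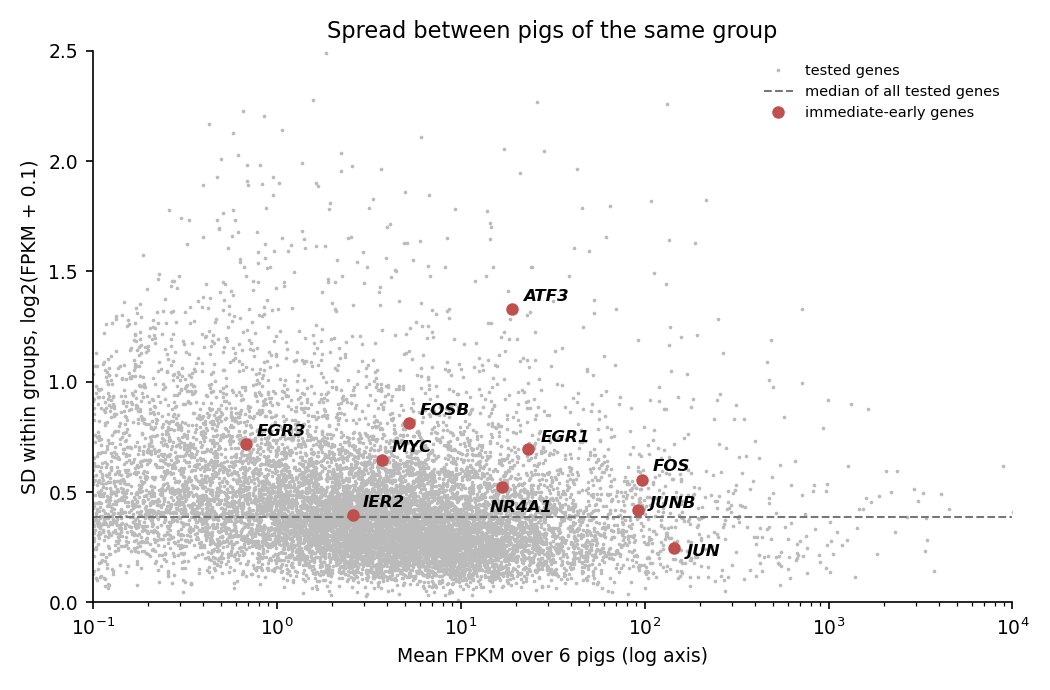
SD within groups of log2(FPKM + 0.1) against mean FPKM over the 6 pigs (log axis) for all tested genes (grey) and the immediate-early genes (red), with 24 tested genes outside the axes. ATF3 lies far above and JUN below the dashed median of 0.39.

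Some pigs stood high or low in most of the 10 genes. LW119 was above the gene mean in 9 of the 10 genes and was highest in FOS, FOSB and IER2, with a median deviation of 0.52 on the log2 scale. Its library had the lowest share of FPKM from structural RNAs (Metazoa_SRP, RNase_MRP and RNaseP_nuc), 46.6% against 51.7% to 64.7%, and the lowest summed FPKM, 638536 against 776457 to 846661, and their part in its levels was not tested. LW88 was the lowest pig in 7 of the 10 genes, with a median deviation of -0.55, and LW70 was above the gene mean in 2. Over all tested genes the median deviations were 0.18 in LW119, -0.04 in LW88 and -0.06 in LW70. After size factors LW119 was still above the mean in 9 genes and LW88 was lowest in 6. LW119 is an S-H pig and LW88 an S-L pig, while LW90 and LW82, both S-L, were highest in 3 and 2 genes.

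FOS was compared with each of the other 9 genes over the 6 pigs on the log2 scale. IER2 followed FOS most closely, with a Pearson r of 0.955 (exact permutation of pairings, p = 0.00139, adjusted p = 0.0125) and a Spearman rho of 1 (exact permutation, p = 0.00278, adjusted p = 0.025). Without LW119 and LW88, the pigs farthest from the median of FOS, r was 0.87. With size factors r with IER2 was 0.943 and with quantile normalization 0.931, and in both 0 of the 9 relations, IER2 included, had an adjusted p below 0.05 by exact permutation. FOSB had an r of 0.898 and a rho of 0.943 (exact permutation, adjusted p = 0.0625 and 0.075), and JUNB an r of 0.814 and a rho of 0.886 (exact permutation, adjusted p = 0.0625 and 0.10). Without the same 2 pigs r was 0.458 for FOSB, so that the size of its r depends on them, and 0.956 for JUNB. Leaving out the extremes of FOS narrows its range, so these r values cannot show whether a relation is absent among the rest. JUN (r of 0.727, rho of 0.771) and EGR1 (r of 0.692, rho of 0.771) had adjusted p values of 0.222 for r and 0.185 for rho by exact permutation, and r without these pigs was 0.402 and 0.596. ATF3, MYC, EGR3 and NR4A1 had r between 0.160 and 0.299, rho between -0.143 and 0.257 and adjusted p values from 0.80 for r by exact permutation. Their rho had adjusted p values of at least 0.903 in the same exact test. Without these pigs their r lay between -0.59 and 0.204. As deviations from the group means, r with FOS was 0.97 for FOSB and 0.937 for IER2, so both relations were present within the groups. All values of a pig share its library, and over all tested genes the median r with FOS was 0.310 and 1.77% of genes had an r above 0.9.

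**Figure D4:**
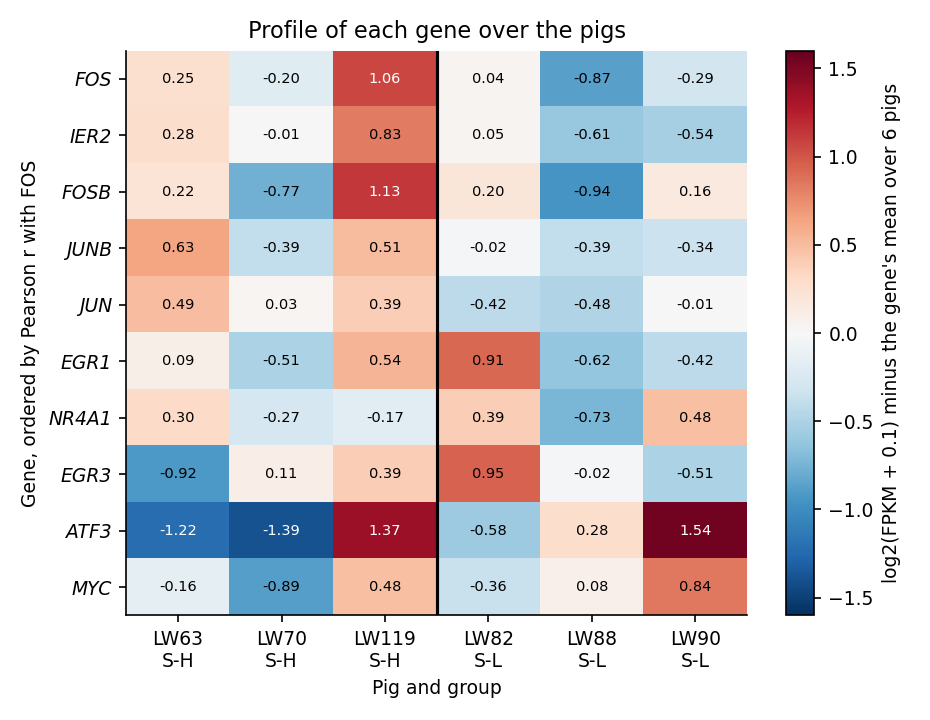
Deviation of each immediate-early gene from its own mean over the 6 pigs, on log2(FPKM + 0.1), with S-H pigs to the left and S-L pigs to the right of the black line and genes ordered by Pearson r with FOS. FOS, IER2 and FOSB share the high LW119 (0.83 to 1.13) and the low LW88 (-0.61 to -0.94), while ATF3 and MYC are high in LW119 and LW90.

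Outside the 10 genes, the 5 genes with the highest r with FOS among 9817 genes with a mean of at least 1 FPKM were KIF3A (0.990), SPINT2 (0.984), HTT (0.983), ARHGAP10 (0.982) and CORO6 (0.980). KIF3A encodes a kinesin motor subunit, SPINT2 a protease inhibitor and HTT the huntingtin protein. ARHGAP10 encodes a GTPase-activating protein and CORO6 a coronin of muscle. KIF3A, for example, ran from 2.33 FPKM in LW88 to 3.96 FPKM in LW119, the same lowest and highest pig as FOS. These are descriptions over 6 pigs, chosen as the highest of many values.

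The wider early response was described by 6 lists with 93 other genes, of which 85 were tested. Of these, 3 passed as lower in S-H and 0 as higher, beside 0.25% (32 genes) and 1.02% (130 genes) of all tested genes, which became 58 and 75 genes with size factors, and 47 had a log2 fold change above 0. Their median log2 fold change was 0.09, below the 0.21 of all tested genes. Among the others, JUND, BATF, BTG2 and ELK1 were not analysed here because no symbol matched, and MAFG, EGR4 and MYCN were below the minimum level.

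**Figure D5:**
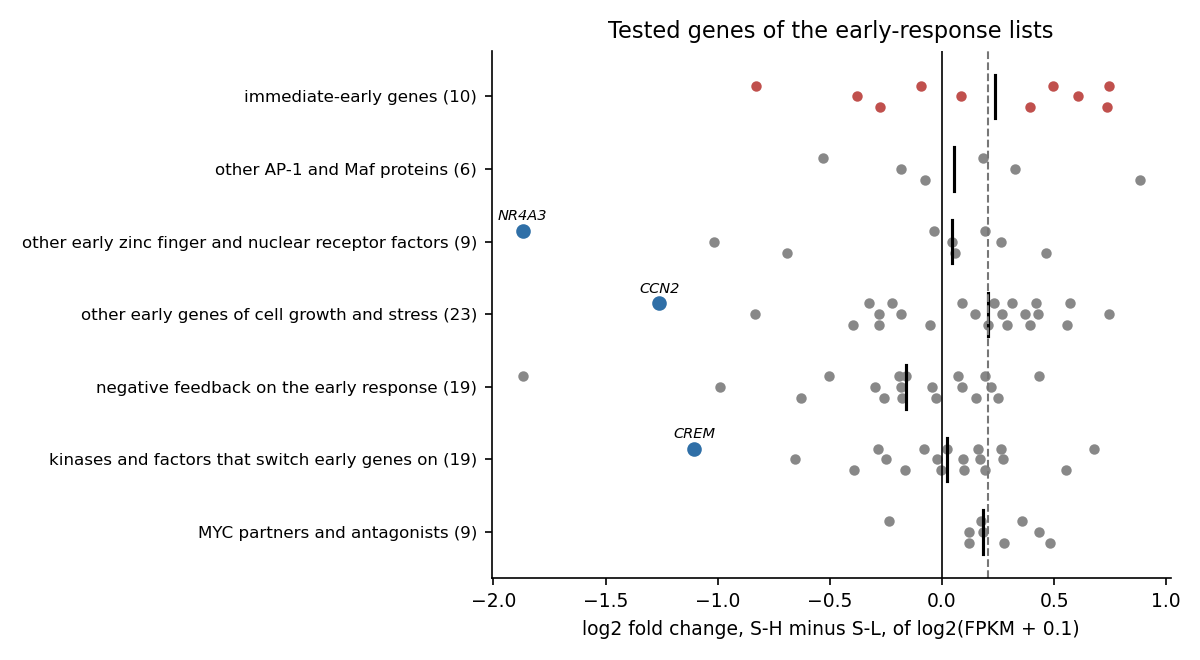
Log2 fold change (S-H minus S-L) of the 10 immediate-early genes in red and of the tested genes of 6 early-response lists in grey, with the number tested in parentheses and a black tick at each median. The dashed line is the median of all tested genes (0.21), and the 3 genes that passed the thresholds, NR4A3, CCN2 and CREM, are in blue and lie below -1.

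Among the other early zinc finger and nuclear receptor factors, 1 of 9 tested genes passed. NR4A3, a receptor of the same family as NR4A1, was lower in S-H, at 2.56 FPKM in LW63, 2.39 FPKM in LW70 and 3.08 FPKM in LW119, against 6.04 FPKM in LW82, 10.7 FPKM in LW88 and 15.4 FPKM in LW90. The S-H pigs were close together, and the lowest S-L pig was well above them. The log2 fold change was -1.87 (SE 0.34, limma adjusted p = 0.314 and raw p of 0.000364), and NR4A3 passed in all 21 alternatives, from -2.23 to -1.56. The ratio of NR4A3 to NR4A1, another of the 6 ratios, looked at after the values were seen, was between 0.128 and 0.215 in S-H and between 0.285 and 1.10 in S-L (two-sided exact permutation p = 0.10, the lowest possible). The most abundant of this list, KLF10 and KLF6, did not pass, with KLF10 at 19.0 ± 7.38 FPKM in S-H against 29.7 ± 6.33 FPKM in S-L and KLF6 at 20.9 ± 10.3 against 19.8 ± 7.59 FPKM (SD, n = 3 pigs each).

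Of the early genes of cell growth and stress, 1 of 23 tested genes passed. CCN2, a secreted matrix protein that promotes fibrosis, was lower in S-H, at 20.3, 13.2 and 25.9 FPKM in LW63, LW70 and LW119 and 31.3, 59.9 and 51.4 FPKM in LW82, LW88 and LW90. The groups did not overlap, with a log2 fold change of -1.26 (SE 0.33, limma adjusted p = 0.596 and raw p of 0.00391). With TPM the groups overlapped. The call was lost in 5 of 19 alternatives, among them without LW70, LW88 or LW90, with log2 fold changes of -0.996, -1.07 and -1.18. ID3, an inhibitor of differentiation, and GADD45G, a stress gene, were the most abundant of the list and did not pass, with log2 fold changes of 0.29 and 0.15.

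Of the kinases and factors that switch early genes on, 1 of 19 tested genes passed. CREM, which encodes activators and repressors of cAMP-responsive genes, was lower in S-H, at 10.1, 12.7 and 12.1 FPKM in LW63, LW70 and LW119 and 18.1, 26.9 and 32.1 FPKM in LW82, LW88 and LW90. The groups did not overlap, with a log2 fold change of -1.10 (SE 0.27, limma adjusted p = 0.595 and raw p of 0.00240). With the Ensembl transcripts alone it was -0.58 and did not pass. It also did not pass without LW63 (-1.01) or LW90 (-0.92), with TPM (-0.96) or with the transcript of highest mean (-1.64), so that the call was lost in 5 of 21 alternatives. MAPK14 and RPS6KA3, the most abundant genes of the list, had log2 fold changes of 0.19 and -0.66 and did not pass.

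No gene passed in the remaining lists. The negative feedback genes (19 tested) had a median log2 fold change of -0.16, and their most abundant members were DUSP1, a phosphatase of MAP kinases, with 66.4 ± 25.1 FPKM in S-H against 49.3 ± 20.1 FPKM in S-L (SD, n = 3 pigs each), and ZFP36L2, an RNA-binding protein, at 35.4 FPKM in both groups. The other AP-1 and Maf proteins (6 tested, median 0.05) were led by FOSL2, with 12.3 ± 5.98 FPKM in S-H and 13.2 ± 2.99 FPKM in S-L, and MAFF, with 14.3 ± 3.68 FPKM and 21.4 ± 8.49 FPKM (SD, n = 3 each). The MYC partners and antagonists (9 tested) had a median of 0.18, and MGA and MLX, the most abundant, had log2 fold changes of 0.18 and 0.36.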

How the data were processed

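The authors removed ribosomal RNA, made stranded libraries, aligned reads to the Sscrofa11.1 assembly with HISAT2 and used StringTie for assembly and quantification, with versions not given in the sources used here. The deposited values are labelled FPKM per transcript and pig, computed by the authors, with no scaling between libraries stated. The 21104 Ensembl transcripts without a symbol, among them JUN and IER2, were taken to be on the TPM scale. This scale is inferred from the values, is not given in the labels and was not tested independently. These transcripts were brought to FPKM with a factor for each pig (0.639 for LW119, the lowest, and 0.847 for LW82, the highest). The factor was found by requiring that all transcripts together give the total that defines TPM, so it rests on the same inference.

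FPKM were summed over the transcripts of a gene. Genes with a symbol (822 of 17376 named through the ID table) and a mean of at least 0.1 FPKM were compared between S-H and S-L on log2(FPKM + 0.1) by limma 3.58.1 with a variance trend in R 4.3.3. This scale understates fold changes of low genes. Genes passed at p below 0.01 before adjustment and a log2 fold change of 1 or more in either direction, the thresholds of the study. The study applied them to edgeR, another test, so a gene that passed here is not the same as a call of the study. SE is the standard error. The fit was also run on simulated data with independent values, which lack the shift shared by genes here, and no conclusion is drawn from that run. Relations with FOS were tested over all 720 pairings, with Benjamini-Hochberg adjustment over 9 relations. Named were the 10 genes, list genes that passed, the 2 most abundant of each list, and the 5 genes most like FOS. Members and lists were chosen with earlier results of these data known. Alternatives were other pseudocounts, minimum levels, scalings, variance models, transcript sets and gene sets, and each pig left out. Promoter and protein sequences were not used here. Other tools were Python 3.11.15, numpy 2.4.6, pandas 2.3.3 and scipy 1.17.1.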

Additional observations from a re-analysis of the deposited data

How the results depend on the processing

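No paired analysis was possible because S-H and S-L hold separate animals and the labels link none of them. The depth behind each value is unknown, so low levels such as those of EGR3 and of single ATF3 transcripts carry an unknown counting error. Of 207 log2 fold changes of the 10 genes under alternatives, 193 kept their direction and side of the thresholds, 13 turned direction and 1 newly passed. FOS, JUN, JUNB and IER2 stayed higher and ATF3 and MYC lower in S-H in all alternatives run, with ranges down to 0.28 for JUNB, -0.27 for ATF3 and -0.029 for MYC. EGR1 turned to -0.13 with size factors, -0.082 with quantile normalization and -0.041 with protein-coding genes scaled to the same total, and NR4A1 turned to 0.053 with TPM. Leaving out 1 pig at a time, the values ran from -0.20 to 0.56 for EGR1, from -0.60 to 0.13 for EGR3, from -0.48 to 0.12 for NR4A1, from -0.076 to 0.87 for FOSB, from 0.31 to 0.81 for JUNB, from -1.72 to -0.27 for ATF3 and from -0.71 to -0.029 for MYC. The number of the 10 genes that passed ranged from 0 to 1 in these fits, the 1 being ATF3 without LW119. With the values exactly as deposited the log2 fold change was 0.74 for JUN and 0.87 for IER2.

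The thresholds were passed by 162 tested genes, of which 130 were higher in S-H and 32 lower, and the split became 75 and 58 with size factors, 63 and 69 with quantile normalization, 227 and 19 with TPM, and 84 and 37 with protein-coding genes scaled to the same total. A pseudocount of 1 gave 76 genes and TPM 246, and leaving out a pig gave 92 (without LW90) to 238 (without LW82), with 107 without LW63. A Benjamini-Hochberg adjusted p below 0.05 (limma) was reached by 11 genes with the transcript of highest mean, by 2 without a trend and by 2 without LW90, and by 1 with scaled protein-coding genes.

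Of the 9 relations with FOS, 1 had an adjusted p below 0.05, and the number was 0 with size factors, 0 with quantile normalization, 3 with TPM and 2 with deviations from the group means. The permutation is not exact for the deviations, because values centred within groups were paired across groups. No conclusion is drawn from that last count. The r with EGR3 was -0.0035 with quantile normalization, and the r with ATF3 was -0.041 with the Ensembl transcripts alone and -0.027 with the transcript of highest mean. The r with FOSB was 0.715 with the Ensembl transcripts alone and 0.806 with the transcript of highest mean (exact permutation, raw p of 0.110 and 0.0708). Correlations with 1 pig left out were not run. The causes of these changes were not tested. The protein-coding gene sets and the values as deposited were chosen as alternatives after seeing the data.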

Other observations

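A pair of genes of the negative feedback list was chosen after their values were seen. SIK1, a kinase that restrains cAMP-driven transcription, had 5.48 FPKM in LW63, 4.76 FPKM in LW70 and 8.86 FPKM in LW119, against 11.2 FPKM in LW82, 10.3 FPKM in LW88 and 16.0 FPKM in LW90. The groups did not overlap, and the log2 fold change of -0.99 (SE 0.30, limma adjusted p = 0.600 and raw p of 0.00940) fell short of the threshold of size. TRIB1, a pseudokinase that directs protein degradation, had 4.30 FPKM in LW63, 3.73 FPKM in LW70 and 24.8 FPKM in LW119, and 15.3 FPKM in LW82, 30.5 FPKM in LW88 and 43.3 FPKM in LW90. Its log2 fold change was -1.87 (SE 0.67, limma adjusted p = 0.600 and raw p of 0.0202), and LW119 alone of the S-H pigs lay within the S-L range.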
